A study of Canis lupus familiaris with 12 samples.

Results

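The genes described here are 7 whose products cut, or stop the cutting of, proteins of the extracellular matrix and the cell surface. They are the proteases MMP14, MMP19, ADAM10, PLAU and CTSK and the inhibitors TIMP1 and TIMP3. These 7 genes were chosen by their ratios of transfectant to control in an earlier pass over the same arrays, so those ratios are given as a description and carry no test of the members. On the array 16 of 13056 probes, from 8 clones, carry one of the 7 symbols, and 4325 genes in all have a probe with a single symbol.

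Pericellular proteolysis is the trimming of matrix and receptors at the cell surface. Membrane-anchored MMP14 cleaves collagens and activates the gelatinase MMP2, secreted MMP19 cleaves basement membrane proteins, and ADAM10 sheds the outer parts of membrane proteins such as E-cadherin. PLAU (urokinase) turns plasminogen into plasmin, and CTSK (cathepsin K) is a cysteine protease with strong activity on collagen. TIMP1 is a secreted inhibitor with weak activity on MMP14, whereas TIMP3 is held in the matrix and inhibits both metalloproteinases and ADAM proteases.

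RNA came from MDCK, an established dog kidney epithelial line, carrying Snail or Slug, which are zinc finger repressors of CDH1 (E-cadherin), or E47, a basic helix-loop-helix repressor of CDH1. In every case the other channel held RNA of MDCK-CMV cells, so the 3 transfectants share 1 control, no array set control against control, and the spread of the control is left out. The labels number the samples of each transfectant 1 and 2, and every sample went onto one array in Cy5 and onto another in Cy3, giving 4 arrays per transfectant and 12 in all on human cDNA clones. Whether the samples were separate cultures or clonal lines is not given in the sources used here, so SDs and p-values cover the spread between these samples, which may be technical.

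The values are log2 ratios of the channels, so 1 unit is a doubling, and they hold no level of a gene. Which channel is the numerator is not stated, and the signs did not follow the dyes. The arrays of a transfectant were brought to 1 sign by their correlation, and the sign of the transfectant was then fixed by placing CDH1 under the control. Directions against the control are therefore assumed, the low CDH1 ratios (-2.29 ± 0.24 in Snail, -2.37 ± 0.056 in Slug and -2.41 ± 0.080 in E47; SD, n = 2) are no finding, and if the sign of a transfectant were turned its higher and lower genes would exchange. The CDH1 mean covers 3 clones that disagree: one lay between -4.20 and -4.12 in the means of the 3 transfectants and another between -3.25 and -2.88, while the remaining one read 0.16, 0.23 and 0.21. Whether a pair of genes lies on the same side of 0 within an array does not depend on that sign.

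On 5 of the 12 arrays a stretch of the deposited table was out of row order. Blocks of 110 rows had been moved within rows 1541 to 4400 of the Snail 2 Cy3 array, 7921 to 10120 of Slug 1 Cy5, 6601 to 10230 of Slug 2 Cy5, 2861 to 8800 of Slug 2 Cy3 and 1 to 3740 of E47 1 Cy3, which is between 16.9% and 45.5% of the rows of those arrays. The order was read from another array of the same transfectant without the probes of the 7 genes and of CDH1. It was then checked on something that used no other array, the clones spotted more than once. Among clones with a spot on a displaced row, duplicate spots correlated between -0.066 and 0.085 as deposited and between 0.79 and 0.90 after the blocks were set back. Clones without such a spot gave 0.67 to 0.86 over the 12 arrays. All values below are from the rows set back unless they are called "as deposited". This choice was made after the data were examined, and what moved the rows was not tested.

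**Figure D1:**
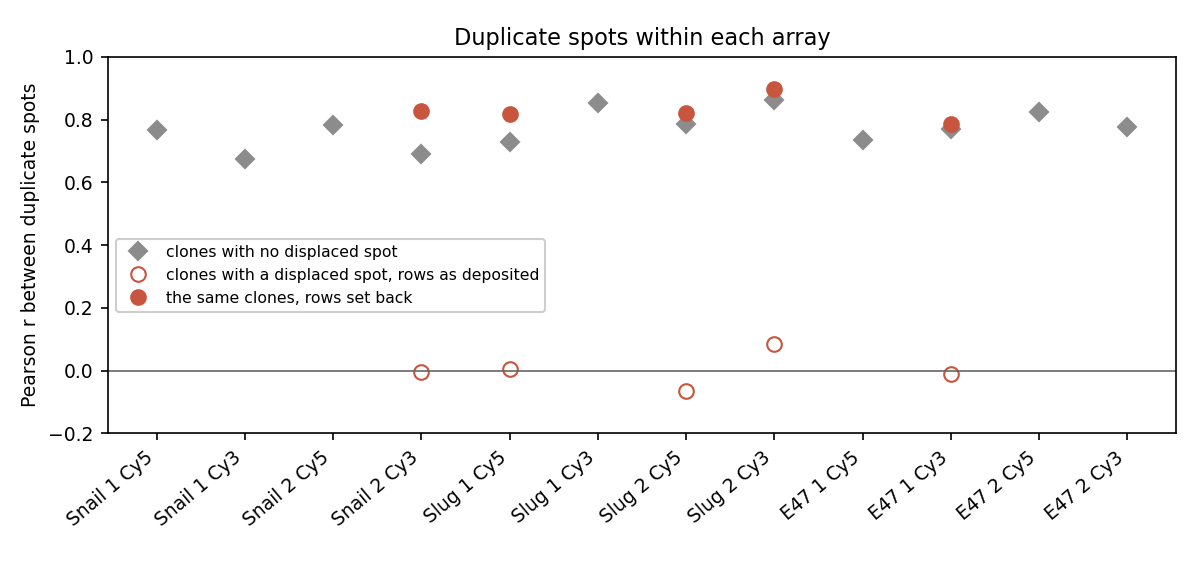
Pearson correlation between duplicate spots of a clone (vertical axis) within each of the 12 arrays (horizontal axis, named by transfectant, sample and dye). Grey diamonds are clones with no displaced spot; on the 5 arrays with displaced rows, open circles near 0 are the clones with a displaced spot as deposited, and filled circles, between 0.79 and 0.90, are the same clones with the rows set back.

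For the 7 genes, 31 of 192 spot values lay on displaced rows and 10 were empty. The MMP14 clone shows what this did. On the Snail 2 Cy3 array its first spot read 0.076 as deposited and -2.67 after the rows were set back, beside -1.68 at its second spot. On the Slug 1 Cy5 array the second spot read 0.31 as deposited and -1.36 set back, beside -1.97 at the first.

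MMP14 lay below the control on all 12 arrays. Its log2 ratios with Snail were -1.91 and -0.98 in sample 1 (Cy5, then Cy3) and -2.69 and -2.18 in sample 2, a mean of -1.94 ± 0.70 (SD, n = 2), or 3.84-fold lower. With Slug they were -1.67, -1.40, -1.16 and -1.46 in the same order, a mean of -1.42 ± 0.16, and with E47 -1.73, -1.56, -2.13 and -1.51, a mean of -1.73 ± 0.12. The arrays of the 3 transfectants overlap, and the 2 samples of Snail differ more than those of Slug or E47. Among all genes measured in both samples MMP14 was 14th from the lowest of 3803 in Snail, 43rd of 4116 in Slug and 12th of 4017 in E47. As deposited the Slug mean was -0.97 and the Snail mean -1.60.

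In the mean of its spots MMP19 was above the control on all 12 arrays by a smaller margin. Its means were 0.45 ± 0.016 in Snail, 0.43 ± 0.0073 in Slug and 0.66 ± 0.28 in E47, at most 1.58-fold. The single arrays ran from 0.12 to 0.75 in Snail, 0.29 to 0.59 in Slug and 0.41 to 0.99 in E47, so the groups overlap. The second MMP19 spot was empty on both arrays of Snail 1, where values rest on the first spot alone. On the Slug 1 Cy3 array the first spot read -0.28 and the second 0.87. The SDs are between sample means and leave out such differences between spots and between arrays. Within every array MMP14 and MMP19 lay on opposite sides of 0, with MMP19 the higher by 1.45 to 3.31 log2 units.

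ADAM10, the sheddase, was low with Slug, lower by a smaller margin with E47 and near the control with Snail. With Slug its arrays read -0.70 and -1.08 in sample 1 and -1.05 and -1.17 in sample 2, a mean of -0.998 ± 0.15. With E47 they read -0.43, -0.42, -0.21 and -0.55, a mean of -0.40 ± 0.033. With Snail sample 1 read 0.43 and 0.36 and sample 2 -0.0054 and -0.079, a mean of 0.18 ± 0.31. In the mean of its spots the 3 groups of arrays do not overlap: Slug is lowest and Snail highest. Single spots do overlap. On the Slug 1 Cy5 array the third spot read 0.054, beside -0.80 and -1.35 at the others. E47 spots ran from -0.96 to 0.18, and the lowest Snail spot read -0.38. The first spot was empty on Snail 2 Cy5 and on E47 1 Cy5.

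PLAU, the urokinase gene, lay on different sides in different transfectants. It was above the control on all 4 Snail arrays (0.33, 0.67, 0.37 and 0.49; mean 0.47 ± 0.047) and on all 4 Slug arrays (0.68, 0.44, 0.56 and 0.78; mean 0.61 ± 0.080). With E47 it was below on all 4, at -0.69 and -0.41 in sample 1 and -1.27 and -1.41 in sample 2 (mean -0.94 ± 0.56). The first PLAU spot was empty on both arrays of Snail 2 and of E47 2, on Slug 1 Cy5 and on Slug 2 Cy3. Values there rest on the second spot alone, which read -0.37 and -0.55 in E47 sample 1. On the E47 1 Cy5 array the first spot read -1.01. The E47 samples differ by more than the whole range of the Snail and Slug arrays. PLAU and CDH1 lay on opposite sides of 0 on all 8 Snail and Slug arrays and on the same side on all 4 E47 arrays, which does not depend on the sign given to any array. Each of the pair of low CDH1 clones gives the same 8 and 4 arrays, and the remaining CDH1 clone gives 4 opposite and 8 on the same side. As deposited the Slug mean of PLAU was 0.23, since 4 of its spot values lay on displaced rows.

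CTSK, the collagen-degrading cathepsin, was highest with Snail, at 1.23 and 0.86 in sample 1 and 1.89 and 1.49 in sample 2 (mean 1.37 ± 0.45, or 2.58-fold). With Slug its arrays read 0.32, 0.26, 0.085 and 0.47 (mean 0.28 ± 0.010), and with E47 0.78, 0.16, 0.28 and 0.33 (mean 0.39 ± 0.12). Every Snail array lay above every array of the other transfectants, while the Slug and E47 arrays overlap.

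TIMP1, the soluble inhibitor, was the most raised of the 7 in each transfectant. Its single spot gave 1.51 and 1.27 in Snail sample 1 and 2.15 and 1.83 in sample 2, a mean of 1.69 ± 0.42 (3.22-fold). With Slug the arrays read 1.86, 3.25, 3.66 and 3.07, a mean of 2.96 ± 0.57 (7.79-fold). With E47 they read 2.54, 2.56, 3.66 and 3.12, a mean of 2.97 ± 0.59 (7.85-fold). All E47 arrays lie above all Snail arrays, and 1 Slug array, at 1.86, falls within the Snail range. TIMP1 ranked 12th from the highest in Snail, 7th in Slug and 3rd in E47. As deposited the E47 mean could not be given, because the row of TIMP1 was empty on the E47 1 Cy3 array.

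TIMP3, the matrix-bound inhibitor, went the other way. With Snail its arrays read -1.53, -1.07, -1.74 and -1.61 (mean -1.49 ± 0.26, or 2.80-fold lower), with E47 -0.79, -0.79, -0.85 and -0.48 (mean -0.73 ± 0.085) and with Slug -0.20, -0.33, -0.15 and -0.025 (mean -0.18 ± 0.13). The 3 groups of arrays do not overlap. In the mean of its 2 clones TIMP3 lay on the other side of 0 from TIMP1 on all 12 arrays, with TIMP3 minus TIMP1 between -4.51 and -2.07 log2 units, and on the side of MMP14 on all 12, which neither clone shows alone.

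**Figure D2:**
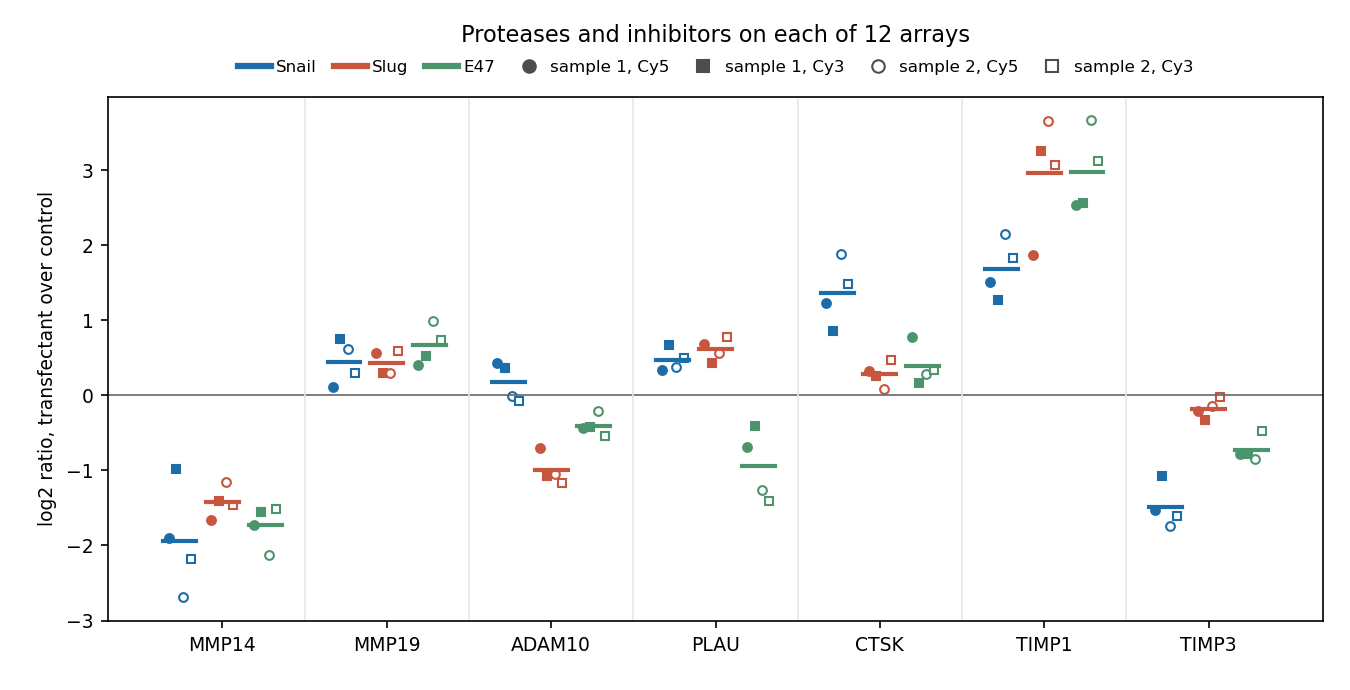
Log2 ratio of transfectant over control (vertical axis) of the 7 genes (horizontal axis) on each array, coloured by transfectant. Circles are arrays titled Cy5 and squares Cy3, filled for sample 1 and open for sample 2, and bars are means of the 2 samples. MMP14 lies below 0 and TIMP1 and MMP19 above 0 on all 12 arrays, and PLAU lies above 0 with Snail and Slug and below 0 with E47.

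TIMP3 is the only one of the 7 with more than 1 clone, and its clones differ in size and on some arrays in side. The first clone gave -2.09 ± 0.13 in Snail, 0.0075 ± 0.16 in Slug and -0.88 ± 0.064 in E47 (SD, n = 2). The second gave -0.88 ± 0.66 in Snail, -0.36 ± 0.098 in Slug and -0.57 ± 0.11 in E47. In the first clone Snail lies below E47 and E47 below Slug on every array, as in the mean of the clones. It lay opposite TIMP1 and beside MMP14 on 9 of 12 arrays, the other 3 being Slug arrays where it read 0.073, 0.013 and 0.23. The second did so on 11 of 12, the exception being the Snail 1 Cy3 array at 0.025. In the second the Snail arrays spread from -1.56 to 0.025 and take in the arrays of both other transfectants, so there the order rests on the means.

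**Figure D3:**
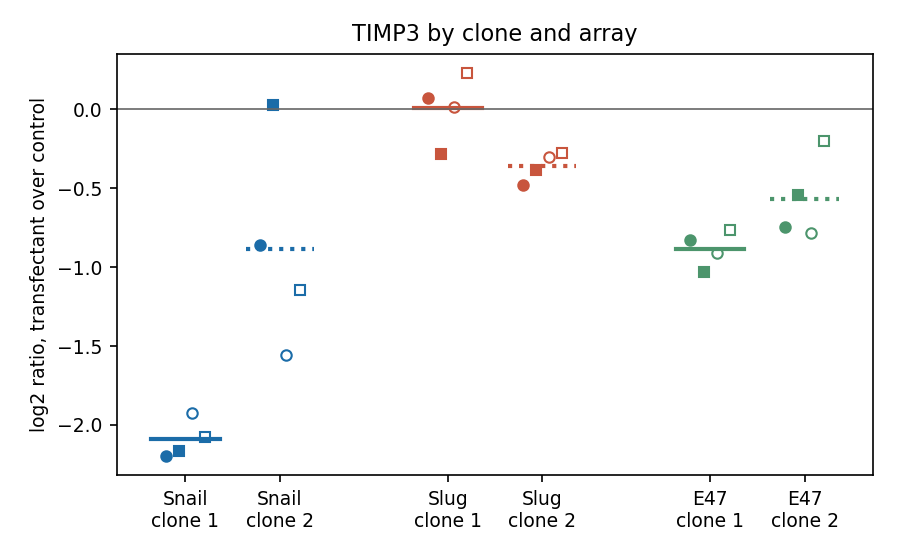
Log2 ratio of transfectant over control (vertical axis) of the 2 TIMP3 clones on each array of Snail, Slug and E47 (horizontal axis). Circles are arrays titled Cy5 and squares Cy3, filled for sample 1 and open for sample 2; solid bars are the mean of the first clone and dotted bars of the second. In Snail the first clone lies near -2.09 on every array and the second spreads from -1.56 to 0.025.

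Tests over all genes used limma on the 2 sample means per transfectant with Benjamini-Hochberg adjustment, and a gene was called at an adjusted p under 0.05. Against the control, 3 of the 7 were called higher and 2 lower in Snail (MMP19, CTSK and TIMP1; MMP14 and TIMP3), where 6.57% of all 3803 genes were called higher and 12.5% lower. In Slug 3 were called higher (MMP19, PLAU, TIMP1) and 2 lower (MMP14, ADAM10), against 22.6% and 19.3% of 4116 genes. In E47 2 were called higher (MMP19, TIMP1) and 3 lower (MMP14, PLAU, TIMP3), against 8.22% and 5.45% of 4017 genes. Since the rule used these contrasts, nothing is read from the counts. As deposited, the calls of MMP19 in Snail and Slug, PLAU in Slug and TIMP3 in E47 were lost. Leaving out 1 sample lost MMP19 in Snail (0.46 without Snail 1, 0.43 without Snail 2), in Slug (0.44 and 0.43) and in E47 (0.46 without E47 2), PLAU in Slug (0.67 and 0.56) and in E47 (-0.55 without E47 2), and TIMP3 in E47 (-0.67 without E47 1, -0.79 without E47 2). The MMP19 call in Snail was also lost without either Slug sample, which leaves its value at 0.45. Leaving out 1 sample of a transfectant took the number of genes called from 725 to 379 without Snail 2, from 1724 to 846 or 828 without Slug 1 or 2, and from 549 to 253 or 108 without E47 1 or 2.

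Differences between transfectants are another contrast of the same arrays. They are built from the ratios by which the 7 were chosen, so their adjusted p-values, given over all genes, describe the size of a difference beside the spread and are no independent test of the members. Snail against Slug called 2 of the 7 higher and 2 lower, against 11.2% and 20.7% of 3759 genes. Snail against E47 called 2 higher and 2 lower, against 3.14% and 9.58% of 3697 genes, and each of these 4 calls was lost in at least 1 setting without a sample. Slug against E47 called 1 higher and 0 lower, against 5.69% and 5.21% of 3916 genes; at an unadjusted p under 0.05 it had 3 of the 7.

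The largest Snail to Slug difference among the 7 was that of TIMP3, at -1.31 ± 0.18 (SE; limma, adjusted p = 0.00112). In the mean of its 2 clones all 4 Snail arrays lay below all 4 Slug arrays, which the second clone alone does not show. TIMP3 was also lower in Snail than in E47 by -0.76 ± 0.18 (limma, adjusted p = 0.0261), a call that was lost without Snail 2 (-0.57), E47 1 (-0.82) or E47 2 (-0.70) and as deposited (-0.60). TIMP1 was lower in Snail than in Slug by -1.27 ± 0.34 (limma, adjusted p = 0.022) and than in E47 by -1.28 ± 0.34 (limma, adjusted p = 0.043). The first call was lost without Snail 1 (-0.97) or Slug 2 (-0.87) and the second without Snail 1 (-0.99) or E47 2 (-0.87). With the spread of every array set equal TIMP1 differed between Snail and Slug by -0.63 and was not called. On the arrays titled Cy5 alone neither TIMP1 difference was called (-0.93 and -1.27), and that from E47 was also lost with displaced rows left out (-1.20) and where either array of a sample sufficed (-1.28), which adds genes to the adjustment. The TIMP3 difference from E47 was lost on either dye alone (-0.82 and -0.71) and with displaced rows left out (-0.69). Slug and E47 differed in TIMP1 by -0.012 ± 0.34 (limma, adjusted p = 0.986) and in TIMP3 by 0.55 ± 0.18 (limma, adjusted p = 0.0845).

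Among the proteases, CTSK was higher in Snail than in Slug by 1.08 ± 0.21 (limma, adjusted p = 0.00567) and than in E47 by 0.98 ± 0.21 (limma, adjusted p = 0.0207). The second of these was lost without E47 1 (1.06) or E47 2 (0.90), on the Cy5 arrays alone (1.03), on the Cy3 arrays alone (0.93) and as deposited (0.71). ADAM10 was higher in Snail than in Slug by 1.18 ± 0.18 (limma, adjusted p = 0.00222). In the mean of its spots every Snail array lay above every Slug array. The ADAM10 call held in every alternative of the processing, while its direction needs the assumed sign of Slug. Its Snail to E47 difference of 0.58 was not called (limma, adjusted p = 0.0728) but was called with equal spread (0.63), without Snail 2 (0.80) and with complete probes only (0.67). PLAU was higher in Snail than in E47 by 1.41 ± 0.24 (limma, adjusted p = 0.00904), which was lost without E47 2 (1.02), and higher in Slug than in E47 by 1.56 ± 0.24 (limma, adjusted p = 0.00655), which was lost as deposited (1.18). No pair of transfectants was called for MMP14 or MMP19: the differences ran from -0.52 ± 0.28 (Snail against Slug) to 0.31 ± 0.28 (Slug against E47) for MMP14 and from -0.23 ± 0.17 to 0.013 ± 0.17 for MMP19. Without Snail 1 MMP14 was called lower in Snail than in Slug (-1.01) and than in E47 (-0.70), and with the spread of every array set equal it was called lower in Snail than in Slug (-0.83).

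These differences assume the signs set by CDH1. The values that follow turn the sign of the second named transfectant of a pair, and turning the first instead gives each the opposite sign. TIMP1 would then differ by 4.65 between Snail and Slug and 4.66 between Snail and E47. TIMP3 would differ by -1.66 and -2.21 and CTSK by 1.65 and 1.75. ADAM10 would differ by -0.82 between Snail and Slug with Slug turned, the other direction, but would keep its direction with Snail turned. PLAU would differ by -0.48 between Snail and E47 (limma, adjusted p = 0.21) and by -0.33 between Slug and E47 (limma, adjusted p = 0.294), so its 2 calls need the assumed signs. MMP14, which has no call under the assumed signs, would differ by -3.36, -3.67 and -3.15 in the 3 pairs.

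**Figure D4:**
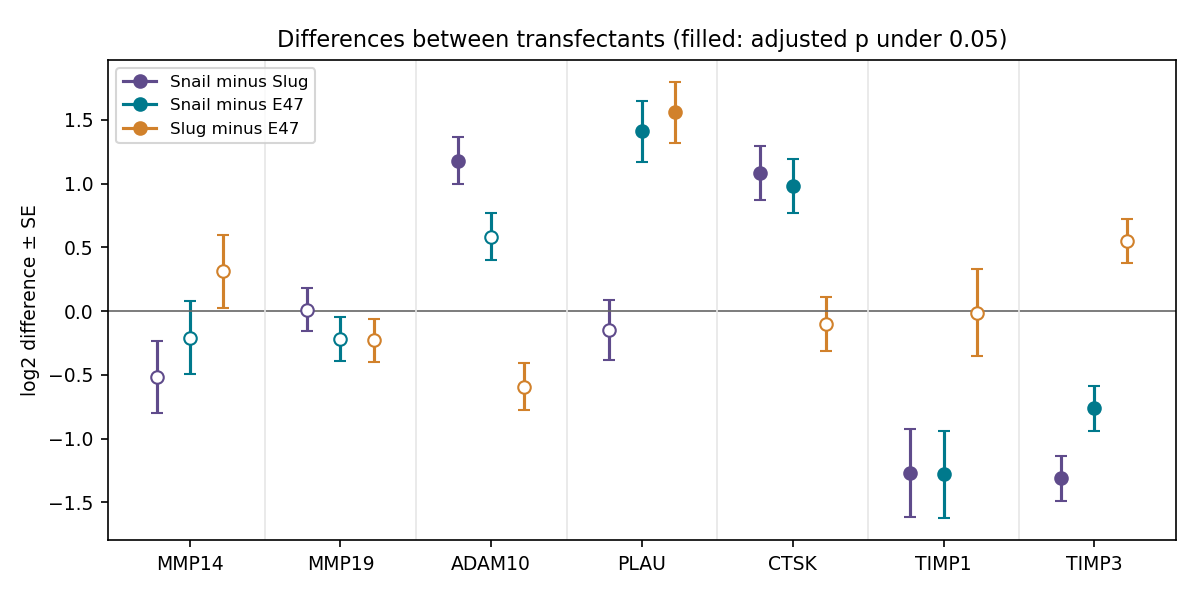
Log2 difference ± SE between transfectants (vertical axis) for the 7 genes (horizontal axis), from the limma fit, with filled points at an adjusted p under 0.05. TIMP3 and TIMP1 lie below 0 and CTSK above 0 where Snail is compared with Slug or E47, and PLAU lies above 0 where Snail or Slug is compared with E47.

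A wider list holds 47 genes of the same pathways on the array, the 7 included. It was chosen with earlier results of these data known, so counts of the list and of its groups are a description. Without the 7, Snail had 5 of 38 tested genes called, each higher, where 6.57% of all genes were higher and 12.5% lower. Slug had 7 higher and 7 lower of 38, near the 22.6% and 19.3% of all genes, and E47 2 higher and 1 lower of 37, near the 8.22% and 5.45% of all genes. At an unadjusted p under 0.05 limma had 9, 18 and 4 of these genes. The median log2 ratio of these genes was 0.044, 0.084 and 0.035, beside -0.053, 0.016 and -7.5e-05 over all genes. With the 7 counted, the calls were 10 in Snail, 19 in Slug and 8 in E47. They fell to 6 without Snail 2, to 6 or 7 without Slug 1 or 2 and to 2 without E47 2. With the spread of every array set equal, Slug called 4 higher and 7 lower in place of 10 and 9.

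Of the matrix metalloproteinases, MMP14 and MMP19 were the only ones called in Snail among 16 tested. With Slug MMP7, matrilysin (0.40 ± 0.12 SE; limma, adjusted p = 0.0268), and MMP15, another membrane-anchored member (0.35; limma, adjusted p = 0.035), were higher as well, and MMP1, the interstitial collagenase, was lower (-0.55; limma, adjusted p = 0.0135). With E47 MMP8, the neutrophil collagenase, was higher (0.76; limma, adjusted p = 0.0218). Each of these 4 calls was lost without a sample of its own transfectant: MMP7 without Slug 2 (0.21), MMP15 without Slug 1 (0.20) or Slug 2 (0.51), MMP1 without Slug 1 (-0.68) or Slug 2 (-0.42) and MMP8 without E47 1 (0.95) or E47 2 (0.56). MMP2, the gelatinase that MMP14 activates, was looked up outside the naming rule and read 0.011, 0.20 and 0.066 in Snail, Slug and E47, none called.

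Of the 5 inhibitors TIMP1 to TIMP4 and RECK, TIMP2 and TIMP4 were called in no transfectant. RECK, a membrane-anchored inhibitor of metalloproteinases, rose in Snail (0.43; limma, adjusted p = 0.0303) and fell in Slug (-0.46; limma, adjusted p = 0.0106), and the difference of 0.88 ± 0.16 was called (limma, adjusted p = 0.00377). That call was lost on the arrays titled Cy5 alone (0.67) and needs the assumed signs. With the sign of Slug turned RECK would differ by -0.029 (limma, adjusted p = 0.9), and with Snail turned by the same size. The Snail samples read 0.54 and 0.32, the Slug samples -0.36 and -0.55, and both E47 samples -0.11. Against the control RECK lost its Snail call without Snail 1 (0.32) or Snail 2 (0.54) and its Slug call without Slug 1 (-0.55) or Slug 2 (-0.36).

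In the plasminogen pathway PLAU and PLAT, the tissue-type activator (0.40; limma, adjusted p = 0.0158), were higher with Slug. The urokinase receptor PLAUR (-0.42; limma, adjusted p = 0.0366) and the membrane serine protease ST14 (-0.60; limma, adjusted p = 0.00652) were lower. The calls of PLAU, PLAT, PLAUR and ST14 in Slug were each lost without Slug 1 (0.67, 0.41, -0.22 and -0.61) and without Slug 2 (0.56, 0.39, -0.61 and -0.59). With E47 PLAU was the only call of 6, lost without E47 2 (-0.55), and Snail had 0 of 6, with 2 at an unadjusted p under 0.05 by limma. PLAUR was not called against the control in Snail (0.12) or E47 (-0.24), where its ligand PLAU lay at 0.47 and -0.94.

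Of 11 cathepsins and related genes tested with Snail, 4 were called, each higher, where 6.57% of all genes were called higher. One of the 4 is CTSK, which was chosen by its ratio, and the others were CTSV (1.21 ± 0.15; limma, adjusted p = 0.00121), CTSB (0.67; limma, adjusted p = 0.0184) and CTSO (0.65; limma, adjusted p = 0.0481). CTSV differed from both other transfectants, by 1.09 from Slug (limma, adjusted p = 0.00577) and 1.00 from E47 (limma, adjusted p = 0.02), the second lost without either E47 sample. With Slug CTSA, CTSB and CTSO were higher (0.56 to 0.68) and CTSC (-0.68) and CTSF (-0.48) lower, 5 of 11 where 22.6% of all genes were higher and 19.3% lower, each lost without Slug 1 (0.83, 0.56, 0.41, -0.51 and -0.35 in this order). CTSA (0.51), CTSO (0.71) and CTSF (-0.61) were lost without Slug 2 too, and E47 called 0 of 10, with 2 at an unadjusted p under 0.05 by limma. CTSO in Snail read 0.20 in sample 1 and 1.10 in sample 2 and lost its call without sample 2 and without any 1 of the Slug or E47 samples (limma, adjusted p = 0.0615 and 0.0742). CTSB read 0.38 in sample 1 and 0.96 in sample 2 and lost its call without sample 2.

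Of the serpin family, SERPINH1, a collagen chaperone that inhibits no protease, rose in all 3 transfectants, by 0.97, 0.96 and 0.84 (limma, adjusted p = 0.00109, 3.49e-04 and 0.00246). SERPINA3, an inhibitor of chymotrypsin-like proteases, fell in Slug (-0.89; limma, adjusted p = 0.00132) and E47 (-0.65; limma, adjusted p = 0.018) and read 0.025 in Snail. The calls of SERPINA3 and SERPINH1 in Slug and of CTSV and SERPINH1 in Snail held in every alternative that was run. SERPINH1 in E47 was lost without E47 2 (0.78), and so was SERPINA3 (-0.43). Of the 14 protease list calls in Slug outside the 7 genes, 12 were lost in a setting without 1 sample and 12 as deposited.

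**Figure D5:**
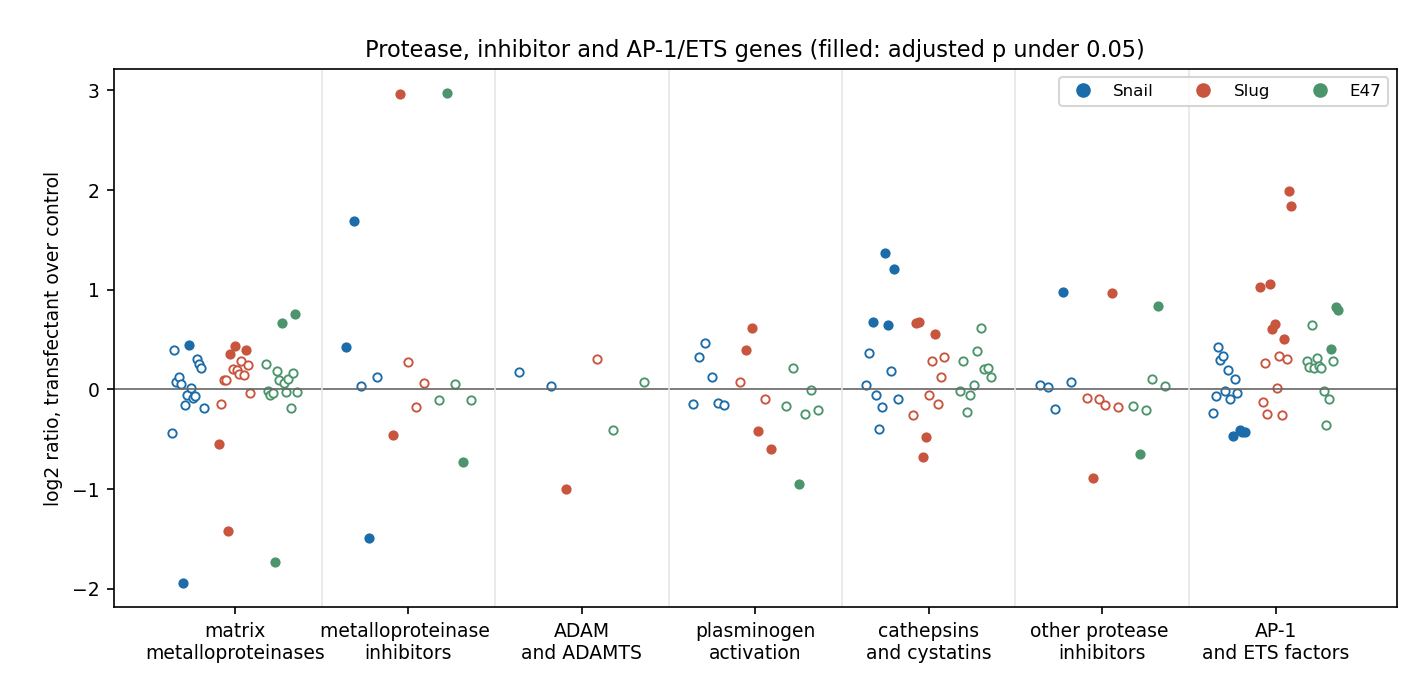
Log2 ratio of transfectant over control (vertical axis) of each tested gene of 6 protease and inhibitor groups and of the AP-1 and ETS factors (horizontal axis), coloured by transfectant, with filled points at an adjusted p under 0.05. TIMP1 is the highest point of the inhibitors in each transfectant, MMP14 the lowest of the metalloproteinases, and JUNB and JUND are the pair near 1.99 and 1.84 among the Slug points on the right.

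AP-1 and ETS proteins are transcription factors known to act at the promoters of many metalloproteinases, TIMP1 and PLAU. Their part in the ratios of the 7 genes was not tested. The list of these factors was chosen with earlier results of these data known, so its counts are a description. Of 14 tested, Slug had 7 called, each higher, where 22.6% of all genes were higher, E47 3, each higher, where 8.22% were, and Snail 4, each lower, where 12.5% were lower. JUNB read -0.42 and -0.44 in the Snail samples, 1.97 and 2.01 with Slug and 0.68 and 0.97 with E47. JUND read -0.51 and -0.35 with Snail, 1.75 and 1.93 with Slug and 0.74 and 0.85 with E47. Snail against Slug had 9 of the 14 called, each lower, where 20.7% of all genes were lower, with JUNB at -2.42 ± 0.16 (limma, adjusted p = 7.2e-05) and JUND at -2.27 ± 0.16 (limma, adjusted p = 7.2e-05). ETV4 (1.06), ETV5 (0.61) and FLI1 (0.65) rose in Slug as well and held in every alternative, whereas the 4 Snail calls, JUN, JUNB, JUND and FOSB (-0.41 to -0.47), were each lost in at least 1 setting without a sample. The 3 E47 calls were each lost in such a setting too, JUNB (0.68) and JUND (0.74) without E47 2 and FOSL2 without either E47 sample (0.39 and 0.43). Of the 9 calls of Snail against Slug, 6 were lost in such a setting; JUNB and JUND held in every alternative. Their direction needs the assumed sign of Slug. With Slug turned, 7 of the 9 would be called higher, where 16.6% of all genes would be, with JUNB at 1.56 and JUND at 1.42. With Snail turned instead, the same 7 would be called lower, where 16.6% of all genes would be. JUN and FOSB would be called in neither case.

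For each of the 7, the genes with the smallest root mean square difference over the 6 sample means were sought among the 3657 genes measured in all 6. MMP14 had ADGRV1 (0.30 log2 units) and NID2 (0.30) nearest, then PLSCR1 (0.49). NID2 encodes a basement membrane nidogen and read -2.01, -1.31 and -2.19 in Snail, Slug and E47. CTSK had CTSV nearest (0.18), then SMIM3 (0.23) and MLF1 (0.27). Whether the human clones of these 2 cathepsins each bind dog RNA of their own gene alone was not tested. TIMP1 had no gene as near: ITM2B came first at 0.79, then COL1A2, a chain of type I collagen, at 0.81 and CXXC5 at 0.86. The distance is not scaled to the size of a ratio, so a gene with extreme ratios, such as TIMP1, has few genes in its range. TIMP3 had BTG1 (0.28), PIK3CB (0.33) and MCM5 (0.37). PLAU had MARCKS (0.39), EIF2B4 (0.44) and FBXO4 (0.45), ADAM10 had CASP8AP2 (0.11), ZNF540 (0.17) and TOR1AIP1 (0.18), and MMP19 had CYBRD1 (0.12), CREG1 (0.16) and PFKM (0.16).

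Markers of cell types moved in the same arrays. Without CDH1, whose side was set, 6 epithelial markers were tested and 4 were called, each lower, in each transfectant, where 12.5%, 19.3% and 5.45% of all genes were lower in Snail, Slug and E47. Their medians were -1.29, -1.05 and -1.01. Of 3 fibroblast markers COL1A2 was higher throughout (1.99, 1.60 and 3.02), while THY1 was lower in Snail and PDGFRA in Slug. The leukocyte marker PTPRC was lower in Snail and Slug, and of the endothelial markers tested (3 in Snail, 4 in Slug and in E47) none was called, with 1 of 4 in E47 at an unadjusted p under 0.05 by limma. All RNA came from the MDCK line, so these ratios were read as changes of marker RNA within that line and not as numbers of cells of a type. A change in part of the cells and a change in all of them cannot be told apart in these samples. The part of these markers in the ratios of the 7 genes was not tested.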

How the data were processed

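The deposited table holds log2 ratios of the 2 channels for 13056 probes on 12 arrays, with array medians from -0.063 to 0.059. How the arrays were scanned, corrected, normalised and filtered is not given in the sources used here. Between 10654 and 12982 probes per array hold a value; precision is limited by the number of arrays.

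Computed here: on 5 arrays, blocks of 110 rows were set back to their place. A displacement was accepted where at least 2 blocks shared it and the correlation of those blocks with a reference array of the same transfectant rose by at least 0.3 on average. The Slug reference, Slug 1 Cy3, was itself checked against E47 2 Cy5, an array of another transfectant, with a median block correlation of 0.58. The block size, the reference arrays and this rule were settled while exploring the data; the second condition was added after the first alone was not enough on a noisy array. The order was recovered on 20 of 20 simulated arrays, but only every second of these had blocks moved. Those had a single stretch shifted round and no empty values, so the simulation does not cover an array like E47 1 Cy3. On that array more than 1 stretch was shifted, and the median correlation of its displaced blocks was 0.57 after they were set back. The design fixed earlier took rows as deposited, which is given as an alternative, as is leaving the displaced rows out. Then 5 arrays were multiplied by -1 to read transfectant over control. Spots of a clone were averaged, then clones of a gene, over the 8047 probes with 1 symbol in the platform annotation (276 have several, 4733 none), and then the 2 arrays of a sample, both required.

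limma 3.58.1 in R 4.3.3 fitted the 3 transfectants together (up to 3 residual degrees of freedom, prior 5.73), two-sided, with Benjamini-Hochberg adjustment over all genes tested. On simulated data with a log2 change of 1, 97% to 97.5% of changed genes were recovered in each comparison with the control, with 9 to 12 false calls. The simulated spread was drawn from the same fit, with independent noise and the same change in both samples. It therefore does not cover dye effects, displaced rows or samples that differ.

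Genes named are the 7, CDH1, every gene of the protease and AP-1/ETS lists with an adjusted p under 0.05 in any of 6 comparisons, and the 3 nearest genes of each of the 7. Members and lists were chosen with earlier results of these data known. Alternatives were 1 dye only, equal spread, centring of each array on its median, either array, equal spots, a replicate block, complete probes and leaving out each sample. Fits with the sign of a transfectant turned are given apart and are not counted among the alternatives. All 7 symbols are in the dog RefSeq table used (assembly UU_Cfam_GSD_1.0). No sequence or coordinate was used here, so how far each human clone binds RNA of its dog gene alone was not tested.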

Additional observations from a re-analysis of the deposited data

Results flagged for a closer look

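Of the 7 genes, 5 had a difference between transfectants with an adjusted p under 0.05 (limma over all genes). These differences are built from the ratios by which the genes were chosen, so they are no independent test, and their directions assume the signs set by CDH1. Of all genes, 11.2% were called higher and 20.7% lower for Snail against Slug, 3.14% and 9.58% for Snail against E47 and 5.69% and 5.21% for Slug against E47. Each of the 4 Snail to E47 calls was lost in at least 1 setting without a sample. TIMP1 differed by -1.273 between Snail and Slug and by -1.285 between Snail and E47, and TIMP3 by -1.311 and -0.7621. CTSK differed by 1.084 between Snail and Slug and by 0.9801 between Snail and E47, and ADAM10 by 1.176 between Snail and Slug. PLAU differed by 1.411 between Snail and E47 and by 1.559 between Slug and E47, with E47 below the control and the others above it. No array stood apart from the other 3 of its transfectant for any of the 7 genes by Dixon's criterion, which chance would meet in about 1 in 20 groups.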

How the results depend on the processing

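None of the 42 values of the 7 genes (7 genes, 6 comparisons) changed direction with a call under any alternative of the processing. Turning the sign of a transfectant is not counted among these alternatives. With Slug turned, the Snail to Slug difference of ADAM10 went from 1.18 to -0.82 and that of TIMP1 from -1.27 to 4.65. As deposited 39 of the 42 values were available, of which 7 lost their call, and with displaced rows left out 3 did. All alternatives here were planned except the last pair, which were added after the data were examined. Counts of all genes called were 725 in Snail, 1724 in Slug, 549 in E47, 1201 for Snail against Slug, 470 for Snail against E47 and 427 for Slug against E47. With arrays titled Cy5 only they were 344, 1083, 310, 586, 90 and 126; with arrays titled Cy3 only 306 in Snail, 297 in E47 and 776, 131 and 173 in the 3 pairs; as deposited 272, 885, 210, 486, 93 and 30; with equal spread Slug against E47 gave 183 (77 higher, in place of 223). Leaving out 1 sample gave 379 to 723, 828 to 1980, 108 to 775, 630 to 1288, 60 to 554 and 73 to 637, where a lone sample is taken to vary like the other groups. Protease list calls were 10, 19, 8, 9, 5 and 2 in the same order. With Cy5 only they were 11 in Slug and 4, 1 and 1 in the pairs; with Cy3 only 12 in Slug, 3 for Snail against E47 and 1 for Slug against E47; with equal spread 11, 9 and 1 for these; as deposited 6, 5 and 4 against the control, 1 for Snail against E47 and 0 for Slug against E47; with displaced rows left out 2 and 1 for these. With each array centred on its median 7 of 9 Snail to Slug calls and 5 of 7 Snail to E47 calls were higher, in place of 6 of 9 and 3 of 5. Leaving out 1 sample gave 6 to 11, 6 to 22, 2 to 11, 6 to 11, 0 to 7 and 1 to 4. The replicate numbers are not said to pair samples, and deviations of equal numbers correlated at 0.13, 0.28 and 0.086. With a replicate block the 6 counts of all genes were 837, 1782, 604, 1299, 545 and 488, protease list calls of Snail against E47 were 9, and no call of the 7 genes changed. The cause of these shifts was not tested, beyond fewer samples where one was left out. How far each spot stood above background is unknown here.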
